A study of Mus musculus with 288 samples.

Results

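The genes that mark the step out of naive pluripotency were followed in the RNA of single mouse embryonic stem cells. They were Fgf5, Otx2, Pou3f1, Zic2, Foxd3, Sox3, Sox4, Grhl2 and Tcf15, 9 of the 54232 rows of the deposited count table, taken by name. Of these 9, Fgf5 encodes a secreted growth factor and the other 8 encode transcription factors. The cells carried the label E14, an established stem cell line of 129/Ola strain, and grew in 2i with LIF, where 2i stands for the inhibitors CHIR99021 (of GSK3) and PD0325901 (of MEK). They were then moved to serum with LIF, and cells were sorted into plates of 96 wells at 0 h (D0), 24 h (D1) and 48 h (D2). All 3 groups therefore shared LIF, and the later groups had serum and no inhibitors. RNA and DNA of each cell were separated by scNMT-seq, and the RNA alone is described here. As far as the labels show, each time point was 1 culture on 1 plate, so a difference of plate or library cannot be told apart from one of time. Cells of 1 culture do not replicate it, and the time points were compared by their values without a test.

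Naive pluripotency is the state of the early epiblast, held in culture by blocking MEK and GSK3 and kept up by a circuit of factors that includes Nanog, Esrrb and Klf4. On release, cells pass through a formative state in which Otx2 and Grhl2 help open new enhancers, and then reach a primed state that is competent for the germ layers. Fgf5 is the classic marker of that passage. Pou3f1 (also known as Oct6) is a POU factor of the post-implantation epiblast, Zic2 a zinc finger factor, Foxd3 a forkhead factor, Sox3 and Sox4 HMG box factors, and Tcf15 a basic helix-loop-helix factor that Id proteins hold in check.

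In GENCODE M21 (GRCm38, the build named in the submitters' processing notes) all 9 genes were found. Fgf5 lies on chr5:98254184-98277030 on the plus strand, Otx2 on chr14:48657677-48673819 on the minus strand and Pou3f1 on chr4:124656807-124660655 on the plus strand. Zic2 lies on chr14:122475435-122479852 (plus), Foxd3 on chr4:99656299-99658622 (plus) and Sox3 on chrX:60891366-60893430 (minus). Sox4 lies on chr13:28948919-28953713 (minus), Grhl2 on chr15:37233036-37363569 (plus) and Tcf15 on chr2:152143561-152149097 (plus). Pou3f1, Foxd3, Sox3 and Sox4 have a single exon in their annotated transcripts, whereas transcripts of Grhl2 have up to 16. Annotated genes on the opposite strand overlap Otx2 (Otx2os1, 5112 bases), Pou3f1 (Gm2164), Sox4 (Gm26735) and Grhl2 (Gm16136, Gm16137 and Gm16138). Whether reads were counted by strand is not given in the sources used here, so reads of such pairs cannot be told apart. Otx2os1 had reads in 2 cells labelled D0, 2 labelled D1 and 3 labelled D2. Across 23 pairs of a member with a gene of its own family, the longest run of bases shared by their transcripts was 48, in Sox4 and Sox11, and 0 pairs shared a run of the read length of 75 bases.

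The study concerns methylation of CG dinucleotides after release, so the CG sites of the promoters are shown for the members with a window in the RefSeq table (GRCm38.p6), which were 4 of the 9 (Fgf5, Otx2, Foxd3 and Sox4). Each sequence is the 250 bases before an annotated start, 5′ to 3′ on the strand of the gene, with every CG in capitals. CG reads the same on both strands and does not overlap itself. For Otx2, which has 4 windows, the window with the most CG is shown.
Fgf5, chr5:98253934-98254183, plus strand: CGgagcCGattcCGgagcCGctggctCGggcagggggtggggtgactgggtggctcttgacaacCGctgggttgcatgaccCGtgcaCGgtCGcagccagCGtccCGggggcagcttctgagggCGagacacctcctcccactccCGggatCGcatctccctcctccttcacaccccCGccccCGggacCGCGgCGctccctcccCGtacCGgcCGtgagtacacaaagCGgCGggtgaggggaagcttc
Otx2, chr14:48665110-48665359, minus strand: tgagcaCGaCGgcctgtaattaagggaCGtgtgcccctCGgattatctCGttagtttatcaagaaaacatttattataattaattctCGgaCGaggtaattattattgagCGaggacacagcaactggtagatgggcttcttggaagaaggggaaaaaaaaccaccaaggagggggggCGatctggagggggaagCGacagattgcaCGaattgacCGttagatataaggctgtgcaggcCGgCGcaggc
Foxd3, chr4:99656049-99656298, plus strand: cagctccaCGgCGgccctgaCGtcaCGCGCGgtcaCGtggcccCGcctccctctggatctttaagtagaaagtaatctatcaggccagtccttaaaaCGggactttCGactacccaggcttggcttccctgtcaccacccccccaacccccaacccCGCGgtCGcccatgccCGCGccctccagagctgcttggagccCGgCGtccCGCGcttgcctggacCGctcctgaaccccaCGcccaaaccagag
Sox4, chr13:28953700-28953949, minus strand: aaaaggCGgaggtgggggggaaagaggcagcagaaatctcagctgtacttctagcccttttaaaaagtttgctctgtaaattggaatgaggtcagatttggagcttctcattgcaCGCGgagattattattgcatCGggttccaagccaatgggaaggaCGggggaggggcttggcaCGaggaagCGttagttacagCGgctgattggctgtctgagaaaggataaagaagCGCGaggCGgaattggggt
The Fgf5 window held 24 CG, and 12% of the 32851 windows of the table held as many or more. Foxd3 had 21 CG (16.3% of windows held as many), this Otx2 window 14 (29.4%) and Sox4 11 (35.6%), where the median window held 6. The other 3 windows of Otx2 held 6, 8 and 9.

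Cells were kept with over 200000 reads, over 2000 genes and under 15% mitochondrial reads, which left 90 cells labelled D0, 50 labelled D1 and 93 labelled D2. Reads on genes per kept cell ran from 255040 to 10073010 in D0 (median 1610758.5), from 202157 to 43336922 in D1 (median 7956161.5) and from 491549 to 9812323 in D2 (median 2162090). Since depth differed, each cell was also thinned at random to 200000 reads, called equal depth here. A cell then had a median of 7827 genes with a read in D0, 8039 in D1 and 3968 in D2, so cells labelled D2 read far fewer genes of any kind. Of the values above 0, between 78.2% and 84.1% were even, so a fragment usually added 2 reads and a single read is not a single molecule. No columns were identical. Levels are given as CPM, the counts of a gene scaled to a common total of reads on genes in each cell, as the mean ± SD between cells. Intervals on shares of cells are exact (Clopper-Pearson, 95%) and, without molecular identifiers, cover counting error only. Where no cell had a read, the limit given is not that interval but 3 cells of the label, 3.33% of the 90 cells of D0, where the exact upper bound is 4.02%.

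The plate labelled D1 differed from the other plates in ways that its label does not give. Reads of Hprt were found in 48 of the 50 cells labelled D1 (96%), in 9 of 90 labelled D0 (10%) and in 7 of 93 labelled D2 (7.53%). A read of a Y-linked gene (Ddx3y, Eif2s3y, Kdm5d or Uty) was present in 96% of the D1 cells, where it was present in 3.33% of D0 and 5.38% of D2. The median share of Ftl2 in the reads of Ftl1 and Ftl2 was 0.397% in D1, 63.3% in D0 and 66% in D2. Of the D1 wells, 5 of 36 at the plate's edge and 45 of 60 inside it passed. The labels give a single line for all 3 plates and do not account for these values, so every difference between D1 and the other labels is one between cells labelled as such, and the part in it of the plate, the line or the annotation used in counting cannot be told apart from time. In overall profile 3 cells labelled D0 and 2 labelled D1 lay closest to the mean of D2, and these are the cells that stood apart. Markers of embryonic stem cells (Pou5f1, Sox2, Sall4, Nanog, Zfp42 and Esrrb) were read at equal depth in 98.7% of gene and cell combinations in D0, 89.3% in D1 and 74.7% in D2.

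At 0 h, in 2i, the set was mostly unread apart from Otx2 and Grhl2. Otx2 was read in 41.1% of cells at equal depth (37 of 90) and Grhl2 in 24.4% (22 of 90), while Fgf5 and Sox3 had no read in any cell at any depth. In D1, 4 factors reached about as many cells as not: Grhl2 (58%), Pou3f1 (54%), Zic2 (48%) and Tcf15 (48%). In D2, Tcf15 (36.6%) and Otx2 (29%) were read most often, and Pou3f1 in 2.15% of cells. The plot of levels by cell shows this pattern together with its spread.

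**Figure D1:**
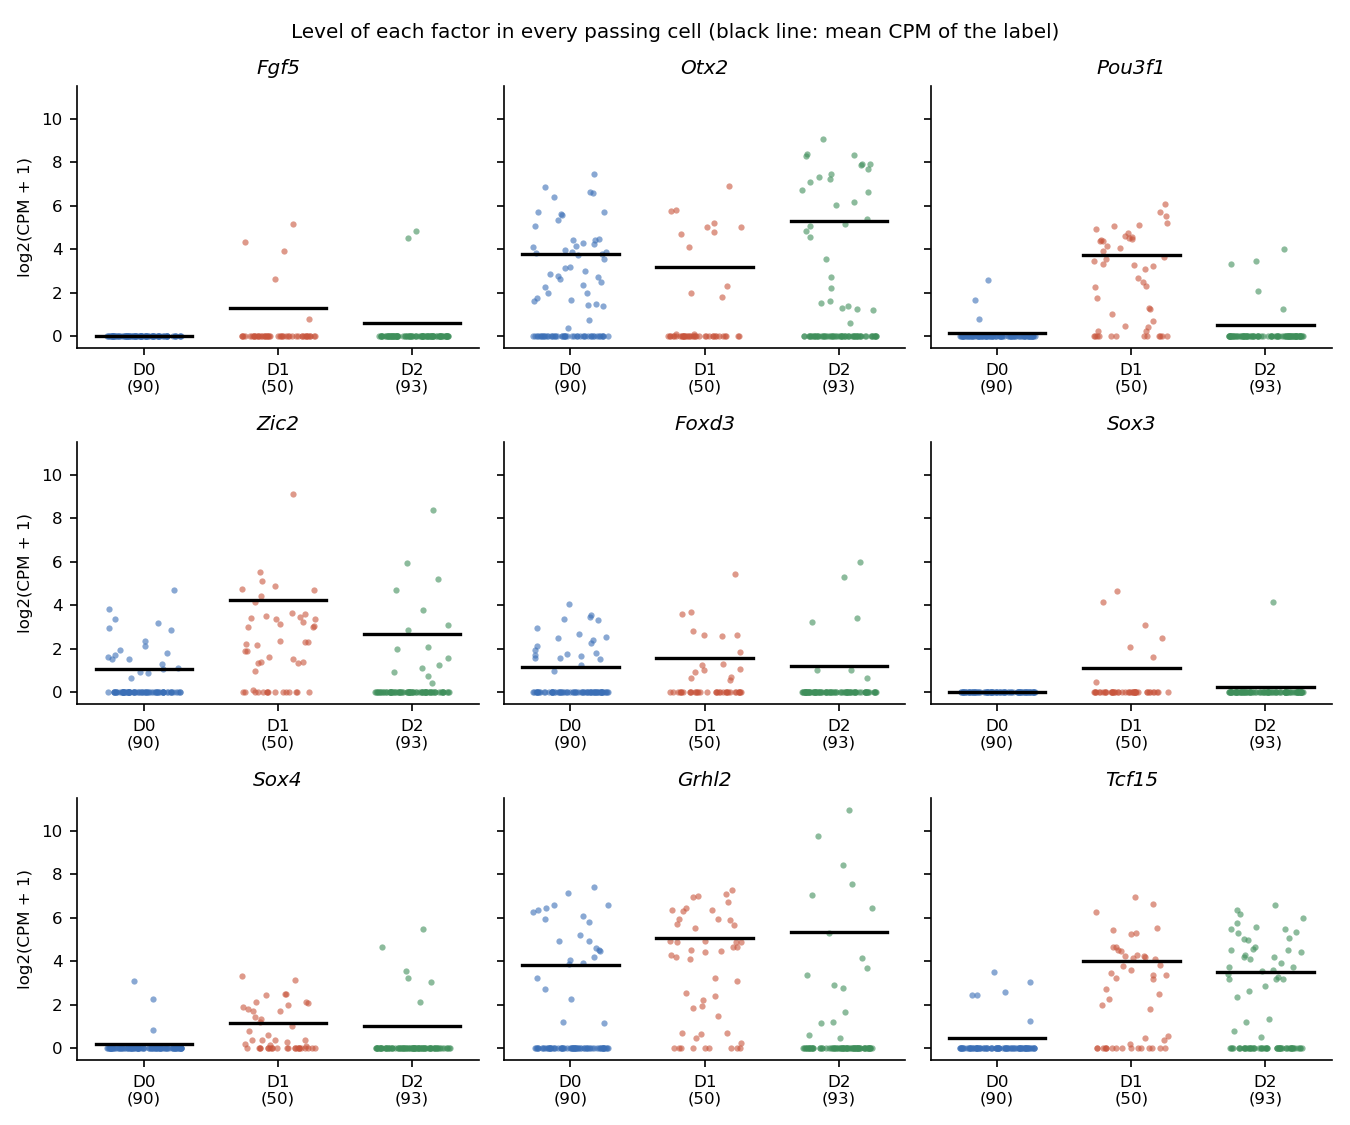
Level of each factor in every passing cell as log2(CPM + 1), by label, with the number of cells in brackets. Points are cells and the black line is the mean CPM of the label on the same scale. Most cells sit at 0 for most factors, and the mean of Grhl2 in D2 is lifted by a cell at 2000 CPM.

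Fgf5, the growth factor of the set, was rare in every label. Among cells labelled D1, 5 had a read, in wells E7 (34.8 CPM), E9 (18.9 CPM), C6 (14.1 CPM), G4 (5.10 CPM) and F9 (0.741 CPM), and the other 45 had none. These cells had 5098488 to 31403185 reads, and 3 of them kept a read at equal depth (6%, interval 1.25% to 16.5%). In D2 the reading cells were H7 (27.5 CPM) and B6 (21.7 CPM), 2 of 93. None of the 90 cells labelled D0 read it (3-cell limit 3.33%). Over summed reads Fgf5 was at least 131-fold higher in D1 than the 3-read floor of D0, and at least 29.6-fold higher in D2. These bounds rest on 5 and 2 cells, with 1204 and 104 reads, and without the cell with the most reads they were 76.4-fold and 10.4-fold. The floor counts reads and not cells, and the reads of a cell are not independent. By cells at equal depth, the 3-cell limit of D0 lay above the D2 share (2.15%) and within the D1 interval. Neither label was thus apart from D0 by that measure.

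Otx2, the homeodomain factor of the formative enhancer switch, was the most widely read member in 2i. Its level ran from 0 to 177 CPM in D0 with a median of 0.142, from 0 to 121 CPM in D1 with a median of 0, and from 0 to 543 CPM in D2 with a median of 0. The ranges overlap throughout. The mean was 12.7 ± 28.5 CPM at 0 h, 8.12 ± 21.3 CPM at 24 h and 38.4 ± 93.8 CPM at 48 h. Log2 of the ratio of mean CPM + 1 was -0.58 in D1 against D0 and 1.53 in D2 against D0, with each SD larger than its mean. At equal depth the share of reading cells was 41.1% in D0 (interval 30.8% to 52%), 22% in D1 (11.5% to 36%) and 29% in D2 (20.1% to 39.4%). Its share was thus lower in D2 than in D0 while its mean was higher, and no order is read from that share. Among the cells that read it, the median level was 12.7 CPM at 0 h, 25.8 CPM at 24 h and 65.5 CPM at 48 h. The ratio of these medians in D2 over D0 was 5.17, where over the 12086 genes read in at least 5 cells of both labels the median ratio was 1.05 and 4.22% of genes had a ratio as high.

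Pou3f1, the POU factor, had the largest differences in share of cells of all 9 members between D1 and each other label. In D1 it ran from 0 to 65.9 CPM with a median of 6.47 and a mean of 12.2 ± 15.2 CPM. The D0 cells with a read were 3, at 5.04, 2.21 and 0.737 CPM, and the D2 cells with a read were 5, between 1.34 and 15.1 CPM. At equal depth 27 of 50 cells labelled D1 read it (54%, interval 39.3% to 68.2%), against 0 of 90 in D0 (3-cell limit 3.33%) and 2 of 93 in D2 (2.15%, 0.262% to 7.55%). Log2 of the ratio was 3.59 in D1 against D0 and -3.22 in D2 against D1. Neither of the 2 cells labelled D1 that lacked an Hprt read had a read of Pou3f1.

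Zic2 was read in 24 of 50 cells labelled D1 at equal depth (48%, interval 33.7% to 62.6%), in 11 of 90 in D0 (12.2%, 6.26% to 20.8%) and in 8 of 93 in D2 (8.60%, 3.79% to 16.2%). Its mean was 1.06 ± 3.35 CPM at 0 h, 17.8 ± 77.6 CPM at 24 h and 5.35 ± 35.6 CPM at 48 h. In each of the later labels a single cell held most of the sum. Cell B7 of D1, at 551 CPM with 2172 genes, is one of the cells that lay closest to the mean of D2 and gave 61.9% of it, and cell F10 of D2, at 337 CPM, gave 67.7%. Without the highest cell the means were 0.795, 6.93 and 1.75 CPM. In D1 against D0 its log2 ratio was 3.19, and 2.14 without the highest cells. For D2 against D1 it was -1.57, and -1.53 without the highest cell of each label, but -0.34 without the cells that stood apart and 0.24 with reads summed over cells, so the direction between D1 and D2 depends on how cells are weighted.

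Foxd3, the forkhead factor, had low means that rested on few cells. They were 1.20 ± 2.82 CPM at 0 h, 1.93 ± 6.33 CPM at 24 h and 1.29 ± 7.58 CPM at 48 h, with log2 ratios of 0.41 and 0.06 against D0. Cell C7 gave 43.6% of the sum in D1 and cell F5 51.4% in D2. Without the highest cell the means were 1.04, 1.11 and 0.636 CPM and the log2 ratios 0.05 and -0.32, so no order of the labels is read. At equal depth it was read in 12.2% of cells in D0 (interval 6.26% to 20.8%), 16% in D1 (7.17% to 29.1%) and 3.23% in D2 (0.670% to 9.14%). The 7 reading cells of D2 ran from 0.563 to 61.9 CPM, and the highest, F5, was also the highest of D2 for Pou3f1.

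The SOX factors were read in few cells at equal depth in every label. Sox3, a relative of Sox2, had no read in D0 (3-cell limit 3.33%). It was read in 7 cells labelled D1, at 23.8 CPM (A12), 16.7 CPM (F2), 7.65 CPM (C7), 4.61 CPM (E5), 3.20 CPM (E9), 2.09 CPM (H10) and 0.4002 CPM (G10). In D2 it was read in 1 cell, C6, at 16.5 CPM. Over summed reads it was at least 43.6-fold higher in D1 and at least 9.69-fold higher in D2 than the floor of D0. Without cell C7, which held 182 of its 402 reads, the D1 bound was 24.8-fold, and the D2 bound rests on 1 cell with 34 reads. By cells at equal depth, the 3-cell limit of D0 lay above the D2 share of Sox3 (1.08%). It also lay within the D1 interval (2.22% to 19.2%), so neither label was apart from D0 by that measure. In D1, Sox4 was read in 27 of 50 cells with all reads (54%) but in 7 at equal depth (14%, interval 5.82% to 26.7%). The median over its reading cells was 1.67 CPM in D1, below the 5 CPM that 1 read makes at equal depth. It had 3 reading cells in D0, at 7.496, 3.81 and 0.758 CPM, and 6 in D2, from 3.40 to 43.5 CPM. Its log2 ratio in D1 against D0 was 0.98, just under 2-fold.

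Grhl2, the grainyhead factor, was read in 29 of 50 cells labelled D1 at equal depth (58%, interval 43.2% to 71.8%), in 22 of 90 in D0 (24.4%, 16.0% to 34.6%) and in 12 of 93 in D2 (12.9%, 6.85% to 21.5%). It ran from 0 to 167 CPM in D0 with a mean of 12.96 ± 31.3, and from 0 to 153 CPM in D1 with a mean of 32.8 ± 40.9. The range of D1 therefore lay within that of D0, and the median over all cells was 19.6 CPM in D1 and 0 in D0. Cells with a read had median levels of 24.3 CPM (D1) and 29.2 CPM (D0). The ratio of these was 0.832, where over 13997 genes the median ratio was 0.647 and 37.5% of genes had a ratio as high. In D2 the mean was 40.01 ± 229 CPM, of which 53.8% came from cell H10 at 2000 CPM and the next highest cell had 881 CPM. Without H10 the mean was 18.7 CPM. The log2 ratio was 1.28 in D1 against D0. For D2 against D0 it was 1.55, and 0.69 without the highest cells, while the share of cells was lower, so no order of these labels is read. The antisense gene Gm16136 had 1801 reads in 8 cells labelled D1, 533 in 3 cells labelled D2 and none in D0.

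Tcf15, the basic helix-loop-helix factor, was low in 2i and present at both later times. In D0 it had a read in 6 cells, at 10.3, 7.14, 4.94, 4.51, 4.43 and 1.35 CPM. In D1 it ran from 0 to 124 CPM (median 6.91, mean 15.2 ± 25.03) and in D2 from 0 to 96.7 CPM (median 0, mean 10.5 ± 19.3). At equal depth 3 of 90 cells labelled D0 read it (3.33%, interval 0.693% to 9.43%), 24 of 50 labelled D1 (48%, 33.7% to 62.6%) and 34 of 93 labelled D2 (36.6%, 26.8% to 47.2%). Its log2 ratios were 3.57 in D1 and 3.08 in D2 against D0, and 3.48 and 3.08 without the highest cells. Tcf15 was also read in both cells labelled D1 that had no Hprt read, at 37.5 and 75.6 CPM, the latter (B6) being one of the cells that stood apart. Its difference between D2 and D0, like every value of D2 against D0, does not involve the plate labelled D1. It is still one between 1 plate and another, so plate and time cannot be told apart in it.

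**Figure D2:**
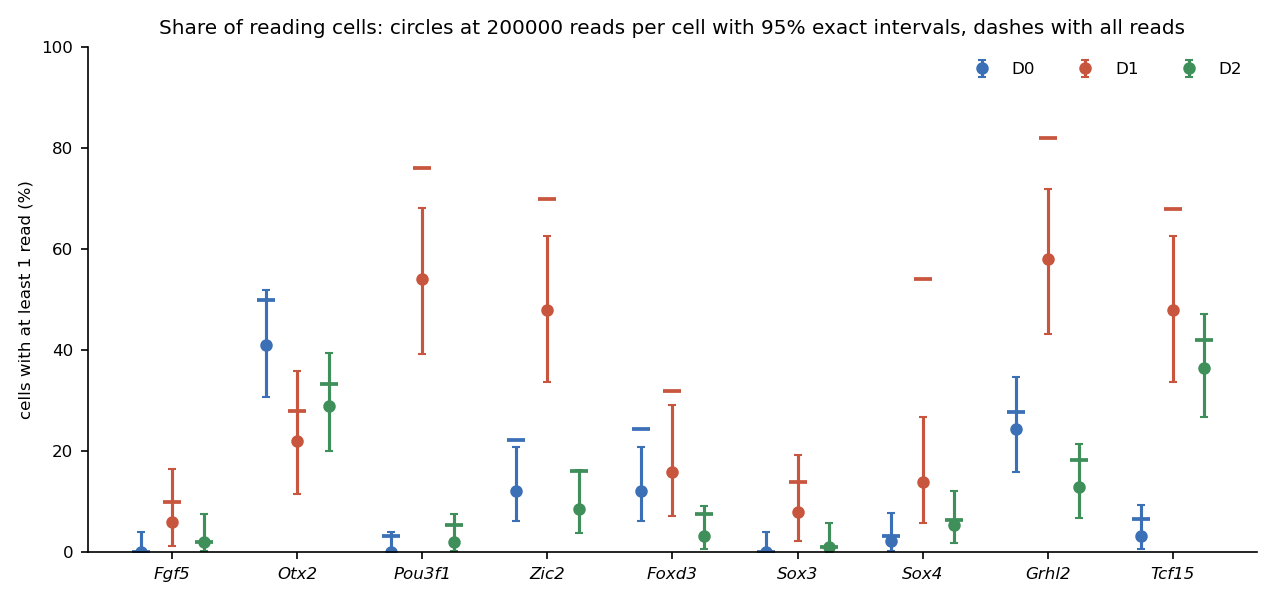
Share of cells with at least 1 read of each factor, in percent, by label. Circles with bars are shares at 200000 reads per cell with exact 95% intervals, and dashes are shares with all reads. The D1 circles of Pou3f1, Zic2, Grhl2 and Tcf15 lie between 48% and 58%, and the dash of Sox4 in D1 lies far above its circle.

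In D1 against D0, more members were higher than lower. A gene was tested where its reads reached at least 5% of cells in at least 1 of the labels compared. All 9 members passed in D1 against D0. Fgf5, Pou3f1, Sox3 and Sox4 passed through D1 alone, so with all reads their share of cells had to be higher there. That favoured a higher mean without fixing it, except in Fgf5 and Sox3, which had no read in D0. At least 2-fold higher were 6 members (Fgf5, Pou3f1, Zic2, Sox3, Grhl2 and Tcf15), where 12.7% of the 19672 genes tested were. Without the highest cell of each label 4 were left, since the log2 ratios of Fgf5 and Sox3 were then 0.84 and 0.77. Lower by as much were 0 members, where 20.2% of genes were. Among the 5 members that passed in both labels, 3 were at least 2-fold higher, where 11.2% of the 14591 genes that passed in both were higher and 24.1% lower. The share of reading cells at equal depth was at least 10 points higher for 5 members (Pou3f1, Zic2, Sox4, Grhl2 and Tcf15), against 18.4% of genes, and as much lower for Otx2, against 15.7% of genes. The median log2 ratio was 1.28 over the members and -0.03 over the genes. With Fgf5 and Sox3 at their bounds the member median was 3.19, which mixes bounds on summed reads with ratios of mean CPM + 1 and has no counterpart over all genes.

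In D2 against D0, 7 members passed and Fgf5 and Sox3 did not. Otx2, Zic2, Grhl2 and Tcf15 were at least 2-fold higher, where 12.3% of 16205 genes were. None was lower by as much, where 26.2% of genes were. Pou3f1 and Sox4 passed through D2 alone, which favoured a higher mean there without fixing it. Of the 5 that passed in both labels 4 were higher, where 13.6% of the 12086 genes that passed in both were higher and 22.3% lower. Without the highest cell of each label, 2 were left, Otx2 and Tcf15. The share of cells was at least 10 points higher for Tcf15 alone, where 2.25% of genes were, and lower for Otx2 and Grhl2, where 59.2% of genes were. Fewer genes were read per cell in D2 in general, and of the genes whose share was lower by that much, 6.81% had a mean at least 2-fold higher, as Otx2 and Grhl2 did. The median difference in share was 1.08 points over the 9 members, -3.62 points over the 7 that passed and -16.1 points over the genes, so its sign over the members depends on Fgf5 and Sox3. The median log2 ratio was 0.85, 1.53 and -0.19.

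Against D1, the cells labelled D2 had 1 member at least 2-fold higher, Otx2 (log2 ratio 2.11), where 14.1% of 18801 genes were. Pou3f1 and Zic2 were lower by as much, where 18.2% of genes were, and Pou3f1 alone without the cells that stood apart (Zic2 then -0.34). No member was read in at least 10 points more cells, where 1.68% of genes were, and 5 were read in as many fewer cells (Pou3f1, Zic2, Foxd3, Grhl2 and Tcf15), where 55.5% of genes were, so that count is near the background. The median log2 ratio was -0.50 over the members and -0.10 over the genes. Fgf5 and Sox3 passed through D1 alone, which favoured a lower mean in D2 without fixing it. Over the 7 members and 12447 genes that passed in both labels the medians were -0.35 and 0.05.

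**Figure D3:**
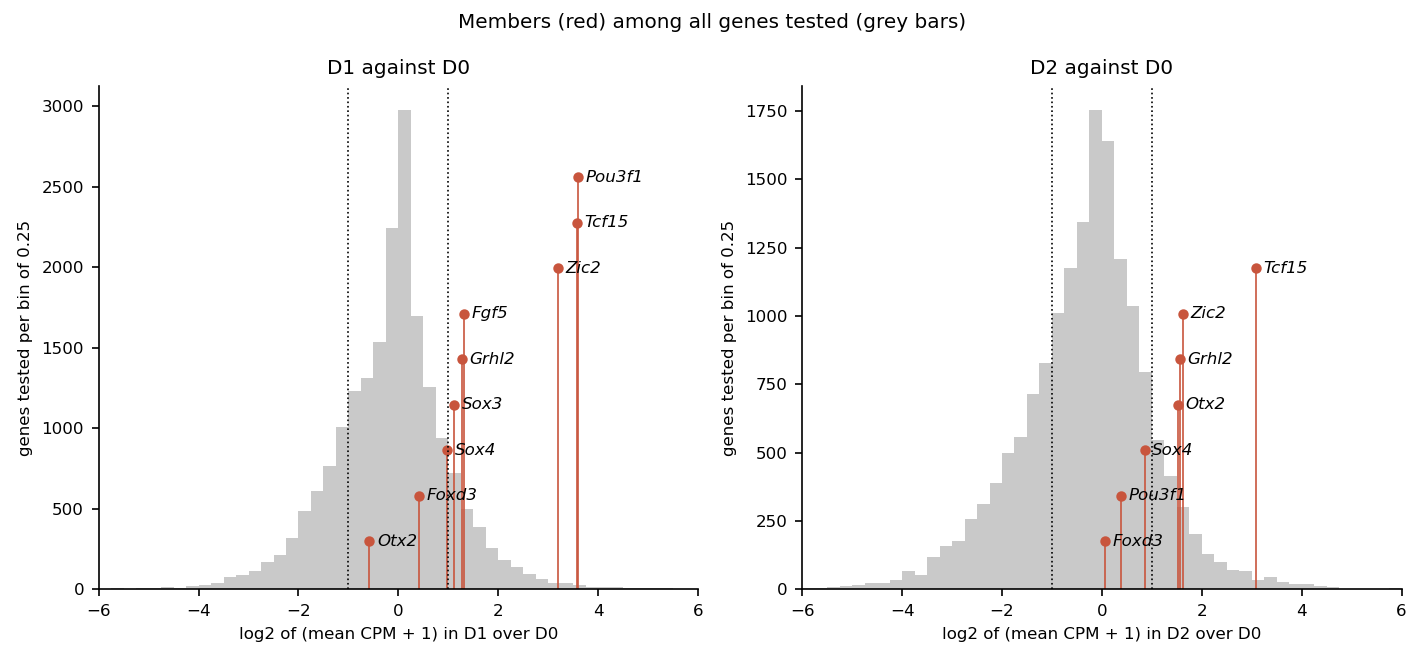
Log2 of the ratio of mean CPM + 1 for all genes tested (grey bars, genes per bin of 0.25), in D1 against D0 on the left and D2 against D0 on the right, with the members that passed in red at heights set only for legibility. Dotted lines mark 2-fold. In D1 the members run from Otx2 at -0.58 to Pou3f1 at 3.59, and in D2 from Foxd3 at 0.06 to Tcf15 at 3.08.

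Levels of different genes can be set side by side only per length, here as mean CPM per kb of exon. In D0 the order was Otx2 (3.00 CPM per kb), Grhl2 (1.51), Foxd3 (0.517), Tcf15 (0.370), Zic2 (0.369), Sox4 (0.0279) and Pou3f1 (0.0231), with Fgf5 and Sox3 at 0. In D1 it was Tcf15 (15.5 CPM per kb), Zic2 (6.19), Grhl2 (3.81), Pou3f1 (3.16), Otx2 (1.92), Foxd3 (0.829), Fgf5 (0.589), Sox3 (0.567) and Sox4 (0.257). Without the highest cells of D1, Zic2 came after Grhl2 and Pou3f1, at 2.40 CPM per kb, and Sox3 (0.343) came before Fgf5 (0.317). Without those of D0, Zic2 (0.276) came before Tcf15 (0.256). In D2 the order was Tcf15 (10.7 CPM per kb), Otx2 (9.09), Grhl2 (4.65), Zic2 (1.86), Foxd3 (0.557), Sox4 (0.219), Fgf5 (0.212), Pou3f1 (0.108) and Sox3 (0.0861). It stayed the same without the highest cells, with Grhl2 then at 2.17, Zic2 at 0.607, Foxd3 at 0.274 and Sox3 at 0. The SD between cells exceeded the mean for every member with reads in every label, so no 2 neighbours in these orders are apart beyond the spread between cells.

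Whether the same cells read several members was asked at equal depth. A cell labelled D0 read a mean of 0.956 ± 0.792 of the 9 members (range 0 to 3), a cell labelled D1 2.74 ± 1.65 (0 to 7) and a cell labelled D2 1.01 ± 0.994 (0 to 4). No member was read in 27 of 90 cells in D0, 3 of 50 in D1 and 34 of 93 in D2. At least 3 members were read in 3 cells labelled D0 (3.33%), 29 labelled D1 (58%) and 9 labelled D2 (9.68%). In D1 the counts per cell were more spread than independent reading at the same shares gives, with a variance of 2.67 against 1.55. The same values were 0.620 and 0.695 in D0, and 0.978 and 0.764 in D2. The number of members read also went with the number of genes read at equal depth, with Pearson's r of 0.222 in D0, 0.423 in D1 and 0.383 in D2 (Spearman's rho 0.0925, 0.458 and 0.363) over the cells of each label, which share a plate. The part of detected genes in the spread was not tested.

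**Figure D4:**
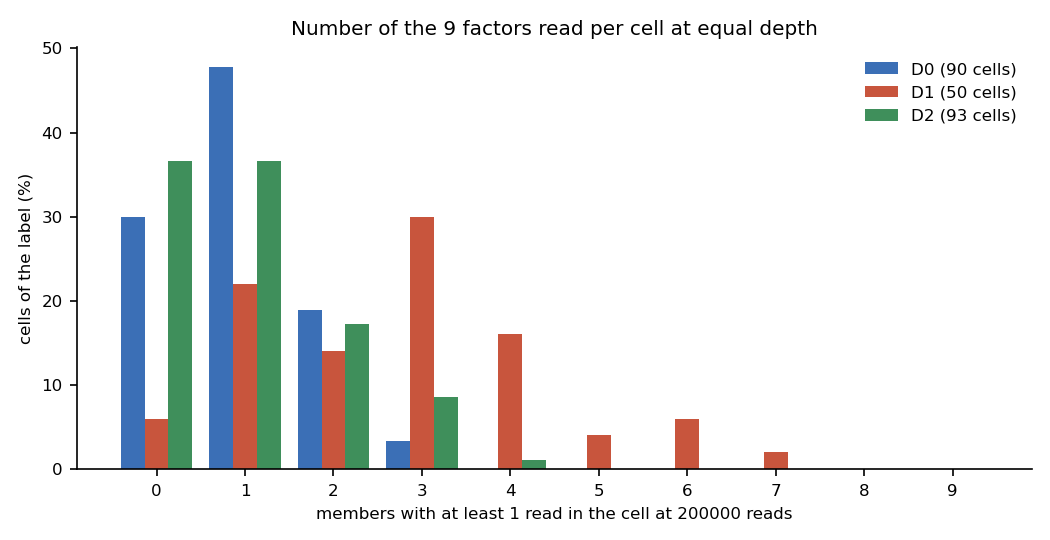
Percent of the cells of each label (vertical axis) that read a given number of the 9 factors at 200000 reads per cell (horizontal axis). Cells labelled D0 and D2 are mostly at 0 and 1, and those labelled D1 are most often at 3.

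Of the 36 pairs of members in D1, the 3 most often read together relative to their shares (by the phi coefficient) were those among Pou3f1, Grhl2 and Tcf15. Pou3f1 and Grhl2 were read together in 22 of 50 cells, where the product of their shares gives 15.7. The pair of Pou3f1 and Tcf15 was found in 18 cells against 12.96, and that of Grhl2 and Tcf15 in 18 against 13.9. Zic2 was closer to the product, and was read with Pou3f1 in 13 cells against 12.96, with Grhl2 in 15 against 13.9 and with Tcf15 in 10 against 11.5. Otx2 was read with Zic2 in 8 cells against 5.28, and with Tcf15 in 4 against 5.28. Pou3f1, Grhl2 and Tcf15 were singled out after their values were seen. All of them were read in 16 cells, where the product of shares gives 7.52, and none of them in 12, where it gives 5.02. Without the cells that stood apart the 16 cells stood against 7.82. In D0 and D2 the product gives 0 and 0.0943 cells with all 3, and none was found.

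Single cells show the range of these combinations. Cell C7 of D1 read 7 members at equal depth, with Grhl2 at 134 CPM, Foxd3 at 41.9 CPM, Tcf15 at 21.5 CPM and Pou3f1 at 16.7 CPM but no Fgf5. Cell E7, which had the highest Fgf5 of D1, was also its highest cell for Pou3f1 (65.9 CPM) and had Otx2 at 53.7 CPM. The D2 cell with the most members, F5, read Otx2, Pou3f1, Foxd3 and Tcf15. In D0, Otx2 and Grhl2 were read together in 7 of 90 cells, where the product gives 9.04, and in D2 Otx2 and Tcf15 in 10 of 93, where it gives 9.87. The most widely read members of those labels were therefore found together about as often as the product of their shares.

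**Figure D5:**
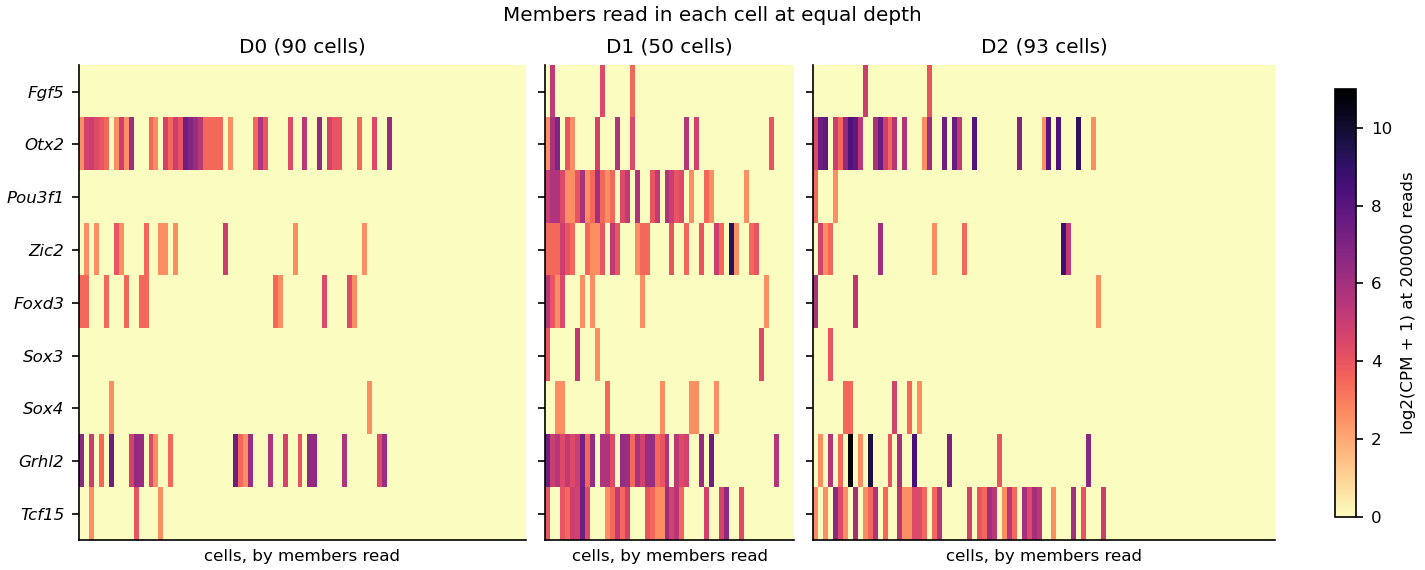
Members (rows) read in each cell (columns) at 200000 reads per cell, coloured by log2(CPM + 1), with the cells of each label ordered by the number of members read. In D1, 16 of 50 columns have a colour in all 3 of the rows Pou3f1, Grhl2 and Tcf15, while in D0 and D2 most columns have a colour in 1 row or in none.

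Pou3f1 and Grhl2 passed the limit of 50% of cells at equal depth in D1, and the genes most like each were sought among 9811 genes read in at least 50% of D1 cells. For Pou3f1 these were Grhl2 (Pearson's r of log2(CPM + 1) 0.616, Spearman's rho 0.619), Lrp2 (0.602 and 0.566) and Car4 (0.595 and 0.594), over 50 cells of 1 plate. For Grhl2 they were Lrp2 (0.666 and 0.626), Lmo4 (0.658 and 0.619) and Ajuba (0.655 and 0.626). Values of r above 0.4 were held by 157 genes for Pou3f1 and 335 for Grhl2. Pou3f1 also went with the number of genes at equal depth (r = 0.415, rho = 0.469), as did Grhl2 (0.474 and 0.478). Of 12 naive genes, 10 were read in at least 20 cells labelled D1. For Pou3f1 all 10 had a negative r, from -0.42 with Zfp42 (also known as Rex1) to -0.03 with Nr0b1, and that with Nanog was -0.41. For Grhl2 the sign was mixed, with 7 negative, down to -0.37 with Dppa3 and -0.36 with Nanog, and 3 positive, up to 0.19 with Klf5. The other members read in at least 20 cells labelled D1 did not lean that way, with 5 of 10 negative for Tcf15 (up to 0.42 with Nr0b1), 5 for Sox4 and 4 for Zic2. Otx2 had a positive r with 10 of 12 naive genes in D0, where Foxd3 and Zic2 had 8 and Grhl2 7, and with 4 of 10 in D2. Most of the Otx2 values in D0 were small, with 0.35 for Zfp42 and 0.16 for Klf2, the next highest. Its rho in D0 was negative with Klf5, Tfcp2l1, Esrrb, Nr0b1, Dppa3 and Tcl1 and positive with the rest, so no lean is read for Otx2. These values describe the cells of 1 plate each (50 in D1, 90 in D0 and 93 in D2) and were not tested.

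Genes of the same families and of the same passage were taken from lists, whose counts stand beside 12.7% of all genes tested higher and 20.2% lower in D1 against D0, and 12.3% and 26.2% in D2. Of 23 family members, 13 passed in D1 against D0, with 4 at least 2-fold higher and 2 lower and a median log2 ratio of -0.17. Sox11, of the same group as Sox4, was read at equal depth in 39 of 50 cells labelled D1, 1 of 90 in D0 and 3 of 93 in D2. Its mean in D1 was 43.9 ± 118 CPM, and 28.2 CPM without the highest cell. Zic5 was also higher in D1 (log2 ratio 2.63), at 34.1 ± 32.8 CPM. Grhl3 was lower in D1 where Grhl2 was higher (log2 ratios -2.74 and 1.28 against D0). Its means were 32.5 ± 43.7, 4.003 ± 12.02 and 13.6 ± 67.3 CPM at 0, 24 and 48 h, with reads in 59, 12 and 7 cells at equal depth. Without the highest cell of each label the means were 30.4, 2.51 and 8.23 CPM. In D2 Grhl2 and Grhl3 were both read in a lower share of cells than in D0. Fgf3 was lower in D1 and in D2 (log2 ratios -1.44 and -1.95), and Sox2 in D2 (-1.68). Sox12 had log2 ratios of -0.40 and 0.64. In D2, 1 cell gave 82.8% of its sum, and without that cell its mean was 0.765 CPM. The D0 mean was 2.48 CPM, or 1.55 CPM without its highest cell, so no order is read for Sox12 in D2. In D2 against D0, 11 family members passed, 2 of them at least 2-fold higher and 3 lower, with a median of 0.04, which is near those shares.

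Receptors of FGF ligands went in both directions, with 3 of 4 tested in D1 and a median log2 ratio of 0.45. Fgfr2 was read in 17 of 50 cells labelled D1 at equal depth and 2 of 90 labelled D0 (log2 ratio 2.18), whereas Fgfr1 was lower in D1 (-1.24) and had a log2 ratio of 0.08 in D2. Fgfr4, at the median, was read in 10% of cells labelled D1 and 3.33% of those labelled D0.

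Of 14 other genes of the formative or primed state, all passed in D1 against D0, and 9 were at least 2-fold higher with none lower (median log2 ratio 1.6). The largest differences were in Dnmt3a (5.24), a de novo methyltransferase, and Lef1 (3.42), a Wnt effector, and the lowest values were those of Etv5 (-0.58) and Nodal (-0.05). In D2, 3 of 13 were at least 2-fold higher (median 0.43) and 1 lower, namely Tcf7l1 (-1.62), while Dnmt3a (3.72) and Utf1 (2.55) led. Lef1 in D2 had a log2 ratio of -0.16. By share, 2 of the 13 were read in at least 10 points more cells in D2 and 7 in fewer, against 2.25% and 59.2% of genes. Of 12 naive genes, 10 were at least 2-fold lower in D1 (median log2 ratio -2.46), led by Tfcp2l1 (-4.92) and Prdm14 (-3.61), and Nr0b1 was higher (1.61). In D2, 6 were lower (median -1.32), led by Klf4 (-3.89) and Tbx3 (-3.27), while Zfp42 had a log2 ratio of 0.52. Nr0b1 had a higher mean in D2 (1.33) but was read in 55.9% of cells against 76.7% in D0, so no order is read. By share at equal depth 11 of the 12 were read in at least 10 points fewer cells in D2, where 59.2% of genes were. The core factors Pou5f1 and Sall4 had log2 ratios of 0.33 and 0.43 in D1, and of 1.6 and -0.21 in D2.

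Markers of some other cell types were read in many cells. The summed level of the primitive streak and mesoderm list (5 genes) ran from 0 to 176 CPM per cell in D0 (median 11.8), from 0 to 28.1 CPM in D1 and from 0 to 10.2 CPM in D2, both with a median of 0. In D0, Gsc was read at equal depth in 41 of 90 cells (45.6%), more than any member, and T in 16 (17.8%). Gsc and T were lower in D1 (-3.24 and -2.68) and in D2 (-3.19 and -2.89). The neuroectoderm list (4 genes) ran from 0 to 199 CPM in D0 (median 0), from 0 to 103 CPM in D1 (median 11.3) and from 0 to 8.29 CPM in D2 (median 0). Its Pax6, a factor of neural progenitors, was read in 17 of 50 cells labelled D1 at equal depth, in 0 of 90 in D0 and in 2 of 93 in D2, while Nes was read in 46% of cells labelled D1, 26.7% in D0 and 2.15% in D2, with log2 ratios of -0.01 and -3.15. Both genes of the list that were tested in D1 were thus read in at least 10 points more cells than in D0. The others of the list, Neurog2 and Lhx2, did not pass. Neurog2 had no read in D0 or D1, and Lhx2 was read in 2% of cells labelled D1 and 2.22% of those labelled D0. Whether D1 held cells of another type, and their part in its values, was not tested. The lists of primitive endoderm (6 genes), trophectoderm (4 genes) and fibroblasts (6 genes) had a median of 0 in every label, with highest cells of 181, 902 and 30.4 CPM. Named by the rule among them, Dab2 had a log2 ratio of -1.05 in D1, Gata3 1.46 and -0.58, Cdx2 0.56 and -1.35 in D1 and D2, and Thy1 1.55 and Col1a1 0.86 in D1. The 3 Zscan4 genes of the 2-cell-like state were unread in all 233 cells.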

How the data were processed

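Single-cell RNA libraries of scNMT-seq were sequenced by the authors as 75-bp paired ends, aligned with HISAT2 to GRCm38 according to the submitters' processing notes, and counted per gene. The version, the annotation, the counting tool and its use of strand are not given in the sources used here. The authors deposited these as raw counts, whole numbers for 288 wells and 54232 genes, with wells that fail their filter still present. A normalized table is named in the labels, which these values are not. Wells were grouped by the label in their title.

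The study's limits were applied (over 200000 reads, over 2000 genes, mitochondrial share under 0.15), which left 233 cells and 55 failed wells. The study's text prints the last limit with a percent sign and gives a slightly lower number of cells. CPM used the total of each cell, thinning to 200000 reads used 1 random draw, and log2 ratios compare mean CPM + 1. Genes entered a comparison if they reached 5% of cells in at least 1 label. With 1 culture per time point no test was run. Python 3.11.15, numpy 2.4.6, pandas 2.3.3, scipy 1.17.1, R 4.3.3, edgeR 4.0.16 and DESeq2 1.42.0 were used, the last 2 for scaling factors alone. Gene models came from GENCODE M21 and promoters from RefSeq, neither of which may be the annotation behind the counts.

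The members and the lists were chosen with earlier results of these data known. Besides the 9 members, named genes are the 2 largest rises and 2 largest falls of each list in D1 and D2 against D0 among genes that reached 10% of cells in at least 1 label, the genes of the label check, and the 3 genes most like a member read in at least 50% of cells (r above 0.4). Antisense neighbours, naive genes in the correlations, and single cells were named after their values were seen. Alternatives were other filters on cells and genes, thinning and seed, detection limits of 5 reads and 10 CPM, summed reads with and without TMM or median-of-ratios factors, pseudocounts of 0.1 and 10, each side of the plate, and leaving out the highest cells, cells that stood apart or D1 cells by their Hprt reads.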

Additional observations from a re-analysis of the deposited data

Results flagged for a closer look

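Of the 46 wells labelled D1 that failed the limits on cells, 8 had a read of a member, and they are listed because these wells enter no comparison. Together they held 24 reads, with Grhl2 in 5 wells (10 reads), Zic2 in 2 wells (6 reads) and Otx2, Pou3f1, Foxd3 and Tcf15 in 1 well each (2 reads each). The failed wells of D0 (6) and D2 (3) had none. Failed wells of D1 had a median of 1436.5 reads on genes.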

How the results depend on the processing

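No paired analysis was possible because a well number names a cell on its own plate and pairs no cells between plates. Of 158 counts of members past a limit, recomputed under the alternatives, 133 stayed within 1.5 times the value given. Within their counting intervals stayed 23 of 34 means of members per cell and 268 of 306 shares, but only 167 of 396 log2 ratios of single members. Another 222 of these ratios moved beyond the intervals, and 7 that were past 2-fold changed sign.

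In D1 against D0, the members at least 2-fold higher numbered 6, and 3 with a pseudocount of 10. Those read in at least 10 points more cells numbered 5, and 8 with a limit of 5 reads, while those read in fewer numbered 1, and 0 with a limit of 10 CPM. In D2 against D0, 4 were higher, and 2 with a pseudocount of 10 or without the highest cells. Those in fewer cells numbered 2, and 1 with thinning to 100000 reads, with 10 CPM or in plate columns 1 to 6. In D2 against D1, 2 were lower, and 1 with over 1000000 reads, median-of-ratios factors, a pseudocount of 10 or without cells that stood apart, but 4 with a pseudocount of 0.1 or in plate columns 7 to 12. In more cells were 0, and 1 with no filter on cells or in columns 1 to 6, and in fewer cells 5, and 3 with no filter. The log2 ratio of Zic2 in D2 against D1, -1.57, turned to 0.24 with summed reads, 0.31 with TMM and 0.35 with median-of-ratios factors, since summing weights a cell by its depth. TMM factors raise the ratio of summed CPM by 0.21 on the log2 scale in D1 against D0 and by 0.28 in D2 against D0 before 1 is added, so genes near 0 move less.

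With the 2 D1 cells without an Hprt read alone, 2 members were higher and 2 lower than in D0, 2 were read in more cells and 2 in fewer, and Pou3f1 (-0.12) and Grhl2 (-3.80) turned. Against those cells, D2 had 4 members higher, 1 lower, 1 in more and 3 in fewer cells, and Pou3f1 (0.50) and Zic2 (1.17) turned, with a mean of 2 members per cell. The mean number of members per cell in D0, 0.956, was 1.38 without thinning, 0.744 at 100000 reads and 0.556 at 10 CPM. In D1, 2.74 became 1.54 with no filter on cells, 4.34 without thinning, 2.26 at 100000 reads, 3.82 at 5 reads and 1.94 at 10 CPM. In D2, 1.01 became 1.32 without thinning and 0.785 at 10 CPM. The cause of the other changes was not tested. Thinning moved the D1 share of Sox4 from 54% to 14%, of Pou3f1 from 76% to 54%, of Grhl2 from 82% to 58% and of Zic2 from 70% to 48%.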
